A study of Mus musculus with 16 samples.

Results

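The olfactory transduction cascade was described here through 10 genes, each found by its annotated symbol in the deposited array table. They were the G protein subunits Gnal, Gnb1 and Gng13, the adenylyl cyclase Adcy3, the channel subunits Cnga2, Cnga4 and Cngb1, the chloride channel Ano2, and Stoml3 and Slc12a2. All 10 listed genes had a probe set, 1 each, out of 19505 named genes and 22206 tested probe sets. In the reference annotation (GRCm38.p6) Gnal and Slc12a2 lie on chromosome 18, Gng13 on 17, Gnb1 on 4, Adcy3 on 12, Cnga2 on X, Cnga4 on 7, Cngb1 on 8, Ano2 on 6 and Stoml3 on 3. Cells came from the olfactory mucosa of S100a5-tauGFP mice, in which the promoter of the activity-dependent neuronal gene S100a5 drives a fluorescent reporter, and every group carried that reporter. The 4 groups of 4 arrays were GFP+ cells after 2-hexanone, GFP- cells after 2-hexanone, GFP+ cells after vehicle and GFP- cells after vehicle. The 24 mice were males and females aged 7 to 12 weeks. Each was housed singly for 40 h under a flow of 3.1 L of clean air per min, and from 26 h it received 10 s pulses every 20 min of the ketone 2-hexanone or of filtered air (vehicle). Tissue of 3 mice was pooled, and flow sorting split each of the 8 pools by reporter signal, so each array averages 3 animals. The p-values rest on the spread between pools, with each probe set's variance drawn toward a value shared by all probe sets. The GFP- fraction is defined only by the absence of reporter signal and can hold other cell types, and the labels used here give no strain background.

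Odorants are detected in the cilia of olfactory sensory neurons. A bound receptor activates the G protein Golf, whose alpha subunit is Gnal and whose beta and gamma subunits include Gnb1 and Gng13. Golf stimulates Adcy3, and the cyclic AMP that it makes opens a cation channel built from Cnga2, Cnga4 and Cngb1. Calcium entering through that channel opens Ano2, and chloride leaves the cilium because Slc12a2, a sodium-potassium-chloride cotransporter, has loaded the cell with it. Stoml3 is a stomatin-family membrane protein found in the cilia of these neurons.

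Promoter windows from RefSeq (GRCm38.p6, 250 bases before and 50 after a transcript start) were found for 8 of the 10 genes, in 12 windows. They were searched for CCCNNGGG, the palindromic core letters of the site bound by Olf/EBF factors, for the same letters with a T before and an A after, and for TAATTA, the core letters of a homeodomain site. All 3 read alike on both strands, so 1 search covers both. CCCNNGGG occurred in 5 of the 8 genes (62.5%), against 15.4% of all 27025 genes with a window, and in 5 of 12 windows (41.7%), against 13.7% of all 32851 windows of that length. The flanked form and TAATTA occurred in 0 of 12 windows, against 0.904% and 5.29% of all windows. The windows below belong to the 4 genes above background with the largest averaged difference between GFP+ and GFP- cells, Ano2, Adcy3, Gng13 and Cnga2, and capitals mark CCCNNGGG where it occurs. For Ano2 and Gng13 the window shown is the one that holds the motif, and their other windows do not hold it. Neither window of Adcy3 does. All 4 windows shown lie on the plus strand. Ano2 (1 of its 3 windows) is at chr6:125710938-125711237, Adcy3 (1 of 2) at chr12:4133147-4133446, Gng13 (1 of 2) at chr17:25716922-25717221 and Cnga2 at chrX:71991599-71991898.
Ano2: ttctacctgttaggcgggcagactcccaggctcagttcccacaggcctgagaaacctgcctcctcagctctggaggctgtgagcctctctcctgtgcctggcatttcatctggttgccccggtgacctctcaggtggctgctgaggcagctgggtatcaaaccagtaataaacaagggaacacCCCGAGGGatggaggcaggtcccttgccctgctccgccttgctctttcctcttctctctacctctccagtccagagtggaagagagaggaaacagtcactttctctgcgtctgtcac
Adcy3: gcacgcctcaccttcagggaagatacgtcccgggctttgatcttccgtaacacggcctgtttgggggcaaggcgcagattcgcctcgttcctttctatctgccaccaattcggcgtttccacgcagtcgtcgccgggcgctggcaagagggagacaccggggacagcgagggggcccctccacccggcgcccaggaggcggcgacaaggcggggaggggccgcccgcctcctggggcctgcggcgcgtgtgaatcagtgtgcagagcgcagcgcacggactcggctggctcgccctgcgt
Gng13: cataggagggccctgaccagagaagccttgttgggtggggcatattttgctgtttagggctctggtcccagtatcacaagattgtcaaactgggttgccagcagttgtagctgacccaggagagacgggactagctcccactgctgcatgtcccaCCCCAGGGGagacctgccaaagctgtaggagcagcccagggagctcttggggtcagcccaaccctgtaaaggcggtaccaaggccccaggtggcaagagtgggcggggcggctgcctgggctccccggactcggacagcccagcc
Cnga2: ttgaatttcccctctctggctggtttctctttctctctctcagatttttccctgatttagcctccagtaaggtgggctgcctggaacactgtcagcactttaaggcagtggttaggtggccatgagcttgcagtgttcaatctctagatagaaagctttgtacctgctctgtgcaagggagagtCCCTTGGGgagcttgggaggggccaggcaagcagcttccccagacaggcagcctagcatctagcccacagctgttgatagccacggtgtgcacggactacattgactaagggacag
Counted with the transcript's start base as 0, the letters began at base -67 in Ano2 and at base -66 in Cnga2. In Gng13 there were 2 overlapping matches, from -95 and -94. The remaining matches were in Cngb1 at -129 and in Cnga4 at 24, after the start. Neither window of Adcy3, nor those of Gnb1 and Stoml3, held these letters. A match is a run of letters and not a measured binding site.

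Signals are deposited log2 values per probe set that ran from 1.25 to 19.81, above the 16 bits of a scanner, so an unstated transformation lies behind every difference. Array medians were 5.70 to 5.76 in GFP+ samples and 6.06 to 6.12 in GFP- samples, and the highest of 23 no-target background bins on each array, used as a floor, lay at 6.16 to 7.33. Precision is limited by there being 4 arrays in a group. S100a5 itself separated the fractions, at 16.72 ± 0.38 in GFP+ and 15.11 ± 0.15 in GFP- cells after 2-hexanone and at 16.42 ± 0.41 and 15.04 ± 0.43 after vehicle (SD, n = 4). Omp marks mature olfactory neurons. Its mean was 19.45 in GFP+ and 19.36 in GFP- cells after 2-hexanone, and 19.38 and 19.37 after vehicle, close to the top of the scale in both fractions.

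The pools numbered 1 stood apart for several cascade genes. In all 4 groups the array of pool 1 was the highest of its group for Cnga2 (0.44 to 0.68 above the mean of the other 3 arrays) and for Ano2 (0.24 to 0.45 above). Cngb1 showed the same order, below the background floor. For Gng13, Gnal, Cnga4, Gnb1, Stoml3 and Slc12a2 pool 1 was highest in 3 of 4 groups, and for Adcy3 in 1 of 4. GFP+ and GFP- cells of a pool share their mice, so a difference within a pool is not moved by a level that its 2 arrays share. The members' results below are therefore also given by pool and, where it matters, without both pools numbered 1.

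**Figure D1:**
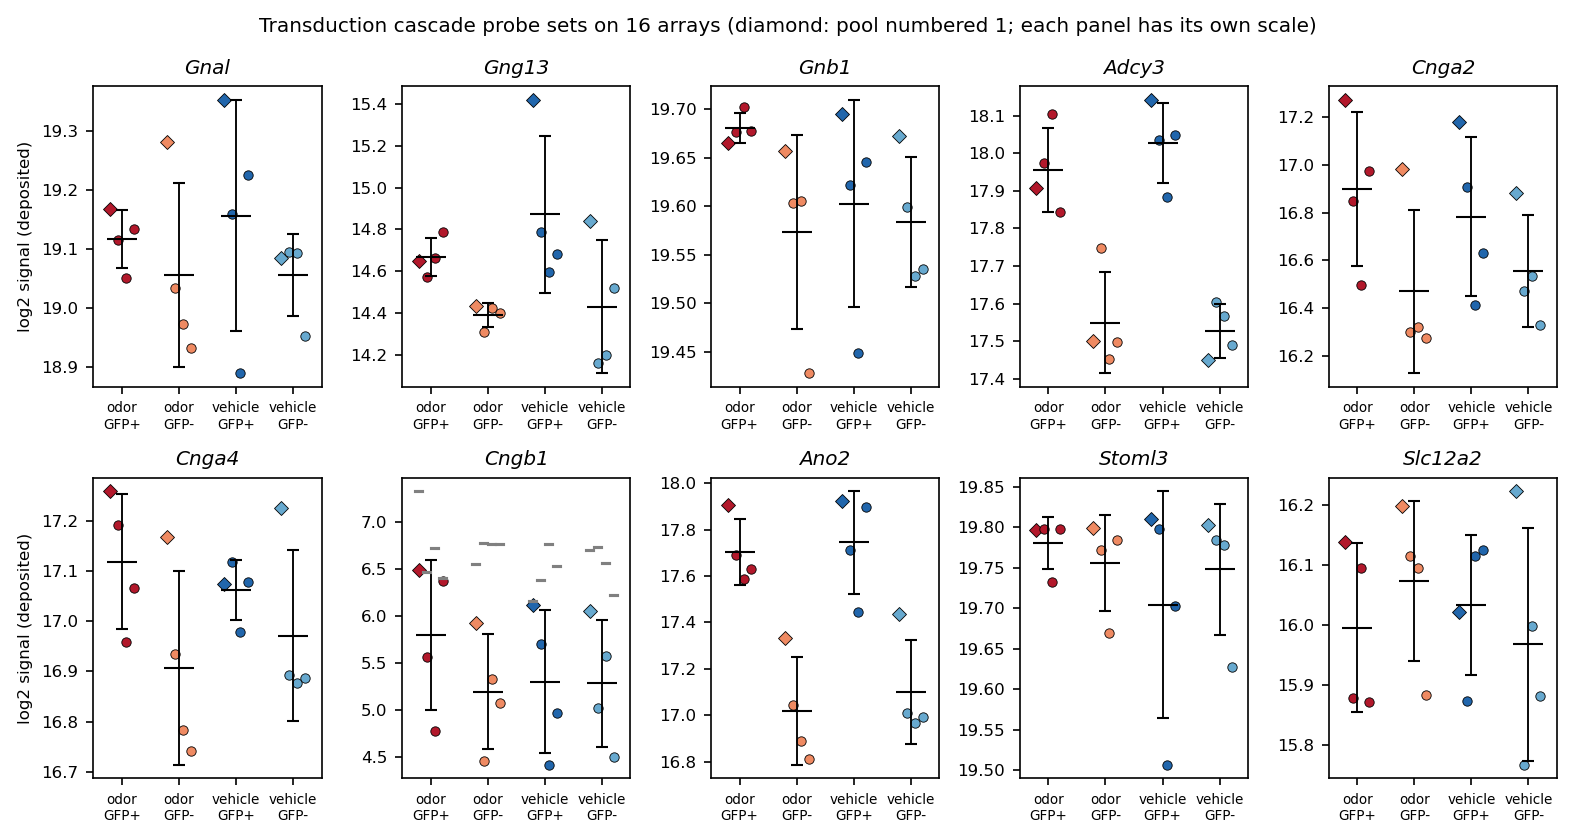
Deposited log2 signal (vertical axis, a separate scale in each panel) of the 10 cascade probe sets on 16 arrays in 4 groups of 4. Points are arrays, diamonds are the pools numbered 1, bars are mean and SD, and grey ticks in the Cngb1 panel are each array's background floor. Adcy3 and Ano2 are the panels in which the GFP+ points lie above all GFP- points after both 2-hexanone and vehicle, and all Cngb1 points lie under their floor.

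Several members lay at or near the top of the arrays' scale. The probe set of Stoml3 carried the highest value of the whole array on all 16 arrays, tied with other rows on 2 of them. Gnb1 lay 0.03 to 0.36 below the array's highest value and ranked 2 to 8 among the tested probe sets. Gnal lay 0.46 to 0.85 below it, at rank 12 to 20. Further down came Adcy3 at 1.62 to 2.35 below the top, Ano2 at 1.80 to 2.98, Cnga4 at 2.53 to 3.04, Cnga2 at 2.52 to 3.51, Slc12a2 at 3.39 to 4.02 and Gng13 at 4.39 to 5.63. These gaps place each probe set on its own array's scale and do not rank the transcripts' amounts, since probe sets differ in brightness. Cngb1 was the exception among the 10 genes: its probe set lay 13.3 to 15.3 below the top and under the background floor on all 16 arrays, so it gave only a bound and no fold.

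Near the top of the scale, probe sets differed little between fractions. Among 15 probe sets with a mean of 19 or more, which include Gnal, Gnb1 and Stoml3, the averaged GFP+ minus GFP- difference was at most 0.08 in size, 0 were called and the median within-group SD was 0.09. Of 24 probe sets from 18 to 19, 16.7% were called. Of 58 from 17 to 18, the range of Adcy3, Cnga4 and Ano2, 13.8% were called, and of 96 from 16 to 17, the range of Cnga2 and Slc12a2, 27.1%. At 14 to 16, the range of Gng13, the share was 29.7% of 451, and over all levels 26.4%. Values this close to the highest on the array cannot show that Gnal, Gnb1 or Stoml3 were equal between fractions.

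**Figure D2:**
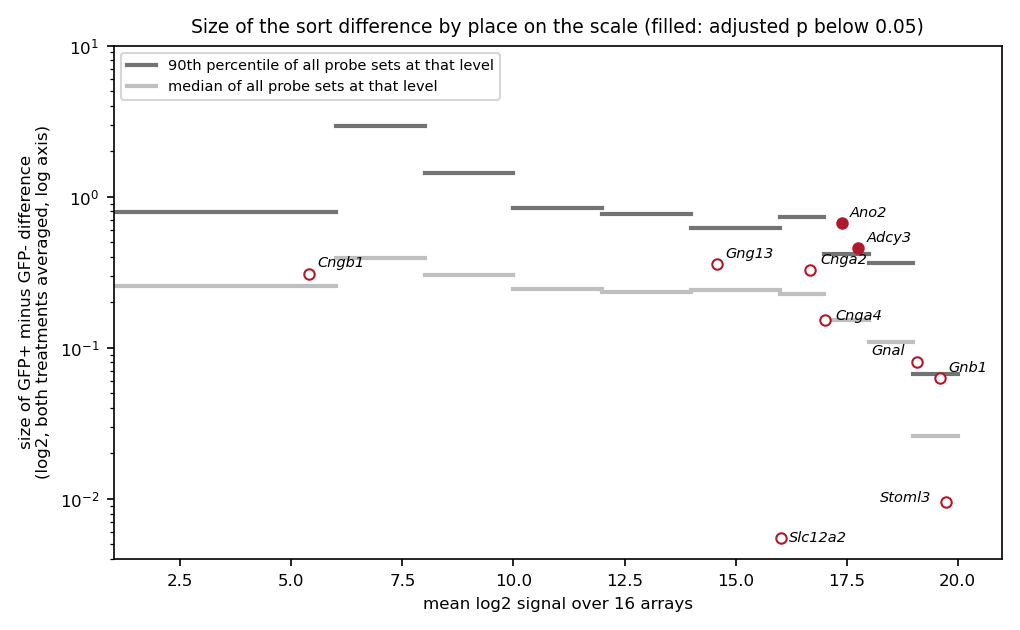
Size of the GFP+ minus GFP- difference averaged over both treatments (vertical axis, log2 units, log axis) against mean log2 signal over 16 arrays (horizontal axis) for the 10 cascade genes. Grey lines are the median and the 90th percentile over all probe sets at that level, and filled points passed the test. Both lines are lowest at the top of the scale, where Gnal, Gnb1 and Stoml3 lie. Ano2, Adcy3 and Gnal lie above the 90th percentile for their level, Gnal at 0.081 against 0.067.

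The comparison of sorted fractions asked whether neurons with an active S100a5 promoter carried more of the cascade's transcripts. Ano2 was higher in GFP+ cells under both treatments, and Adcy3 was higher after vehicle and when both treatments were averaged. The other 8 genes did not pass in any of the 3 contrasts. After 2-hexanone 1 of 10 cascade genes passed, higher, at an adjusted p under 0.05 (limma, Benjamini-Hochberg over all 22206 probe sets), where 14.9% of all probe sets passed (5.29% higher and 9.56% lower). After vehicle 2 of 10 passed, both higher, against 15.7% (5.83% higher and 9.86% lower). Averaged over both treatments 2 of 10 passed, both higher, against 26.4% (13.4% higher and 13% lower). With 10 genes, these counts of either direction lie near the background shares and are no result about the cascade. The median difference of the 10 genes was 0.24 after 2-hexanone, 0.10 after vehicle and 0.23 averaged, against 0.14, 0.14 and 0.15 over all probe sets. These medians include Cngb1, which lay under the floor. For the 9 genes above the floor the medians were 0.21, 0.10 and 0.15, so the averaged one equalled that of all probe sets to 2 digits. The fractions of a bulk sort differ in cell make-up, and a higher share of neurons and more RNA per neuron cannot be told apart.

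Ano2, the calcium-gated chloride channel, gave the largest called difference. After 2-hexanone it stood at 17.91, 17.69, 17.59 and 17.63 in GFP+ cells of pools 1 to 4, against 17.33, 17.04, 16.89 and 16.81 in GFP- cells. After vehicle it stood at 17.92, 17.71, 17.44 and 17.90 in GFP+ cells, against 17.44, 17.01, 16.97 and 16.99 in GFP- cells. The fractions did not overlap under either treatment, but by a narrow margin after vehicle, where the lowest GFP+ value belonged to pool 3 and the highest GFP- value to pool 1. Ano2 was thus 1.61-fold higher after 2-hexanone (0.68 ± 0.18 SE, 95% interval 0.31 to 1.06, adjusted p = 0.012) and 1.56-fold higher after vehicle (0.64 ± 0.18 SE, 0.27 to 1.02, adjusted p = 0.0175), each with 4 pools. Averaged, it was higher by 0.66 ± 0.13 SE (adjusted p = 0.000544). Within pools GFP+ exceeded GFP- in 8 of 8, by 0.57 to 0.82 after 2-hexanone and 0.48 to 0.91 after vehicle. Leaving out pool 2 or 4 of 2-hexanone ended the call there (adjusted p = 0.0546 and 0.0717), and leaving out pool 2 or 4 of vehicle ended it in vehicle (0.0823 and 0.121). A fit of the 8 vehicle arrays alone also ended the vehicle call (adjusted p = 0.0547). Without both pools numbered 1, Ano2 passed after 2-hexanone at 0.72 (adjusted p = 0.0163) and after vehicle at 0.70 (0.0184).

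Adcy3, the cyclase that turns Golf activity into cyclic AMP, followed with a smaller difference. After 2-hexanone it stood at 17.91, 17.97, 18.10 and 17.84 in GFP+ cells of pools 1 to 4, against 17.50, 17.75, 17.45 and 17.50 in GFP- cells. After vehicle the values were 18.14, 18.04, 17.88 and 18.05 in GFP+ cells, against 17.45, 17.60, 17.57 and 17.49 in GFP- cells. The groups did not overlap under either treatment, and after vehicle pool 1 was the highest of the GFP+ and the lowest of the GFP- arrays. The vehicle difference was 0.50 ± 0.14 SE, or 1.42-fold (log2 interval 0.20 to 0.81, adjusted p = 0.0229). After 2-hexanone it was 0.41 ± 0.14 SE (0.10 to 0.71) and missed the threshold (adjusted p = 0.0698). With each pool entered as a random block the same difference passed (adjusted p = 0.0398), while with the pool as a fixed block (0.0981) or the replicate number as a block (0.0626) it did not. In all it passed in 4 of 18 alternatives. These included a trended robust variance prior (adjusted p = 0.00465), the lowest 20% of probe sets left out (0.0473) and centred arrays (0.000835). Whether the difference itself changed with 2-hexanone was tested, and that change was -0.09 ± 0.20 SE (-0.52 to 0.34, adjusted p = 1). Averaged over treatments Adcy3 was higher by 0.45 ± 0.10 SE (adjusted p = 0.00258), and 8 of 8 pools showed it, by 0.23 to 0.69. In vehicle the call ended without pool 1, 2 or 4 (adjusted p = 0.114, 0.073 and 0.103), with the vehicle arrays fitted alone (0.076) and without both pools numbered 1 (0.126). The averaged calls of Adcy3 and Ano2 held in 17 of 17 alternatives.

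Among the G protein subunits, Gng13 came closest to passing. This gamma subunit stood at 14.65, 14.57, 14.66 and 14.79 in GFP+ cells after 2-hexanone, against 14.43, 14.31, 14.42 and 14.40 in GFP- cells, with no overlap. After vehicle the values were 15.42, 14.79, 14.60 and 14.68 in GFP+ cells, against 14.84, 14.16, 14.20 and 14.52 in GFP- cells. There the ranges overlapped, with pool 1 high in both fractions. Within pools GFP+ exceeded GFP- in 8 of 8, by 0.16 to 0.63. The difference was 0.28 ± 0.20 SE after 2-hexanone (adjusted p = 0.403), 0.44 ± 0.20 SE after vehicle (0.15) and 0.36 ± 0.14 SE averaged (interval 0.07 to 0.65, adjusted p = 0.0649). With pools entered as blocks, the averaged difference passed (adjusted p = 0.0327 as random and 0.0266 as fixed terms). Without both pools numbered 1 it did not pass (0.35, adjusted p = 0.0654), and it passed in 8 of 17 alternatives in all.

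Gnal and Gnb1, the alpha and beta subunits, lay near the top of the scale and did not pass. Gnal averaged 19.12 ± 0.05 in GFP+ and 19.06 ± 0.16 in GFP- cells after 2-hexanone, and 19.16 ± 0.20 and 19.06 ± 0.07 after vehicle (SD, n = 4). Its averaged difference was 0.08, with an interval from -0.14 to 0.31. Gnb1 stood at 19.67, 19.68, 19.70 and 19.68 in GFP+ cells after 2-hexanone, against 19.66, 19.60, 19.61 and 19.43 in GFP- cells. These groups were separated only narrowly, between the pool 1 arrays, and after vehicle the ranges overlapped. The averaged Gnb1 difference was 0.06 (-0.14 to 0.27). Of the 10 genes, 4 did not overlap after 2-hexanone (Gng13, Gnb1, Adcy3 and Ano2, all higher) and 2 after vehicle (Adcy3 and Ano2, both higher), where 9.4% and 9.01% of all probe sets did not overlap with GFP+ higher.

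**Figure D3:**
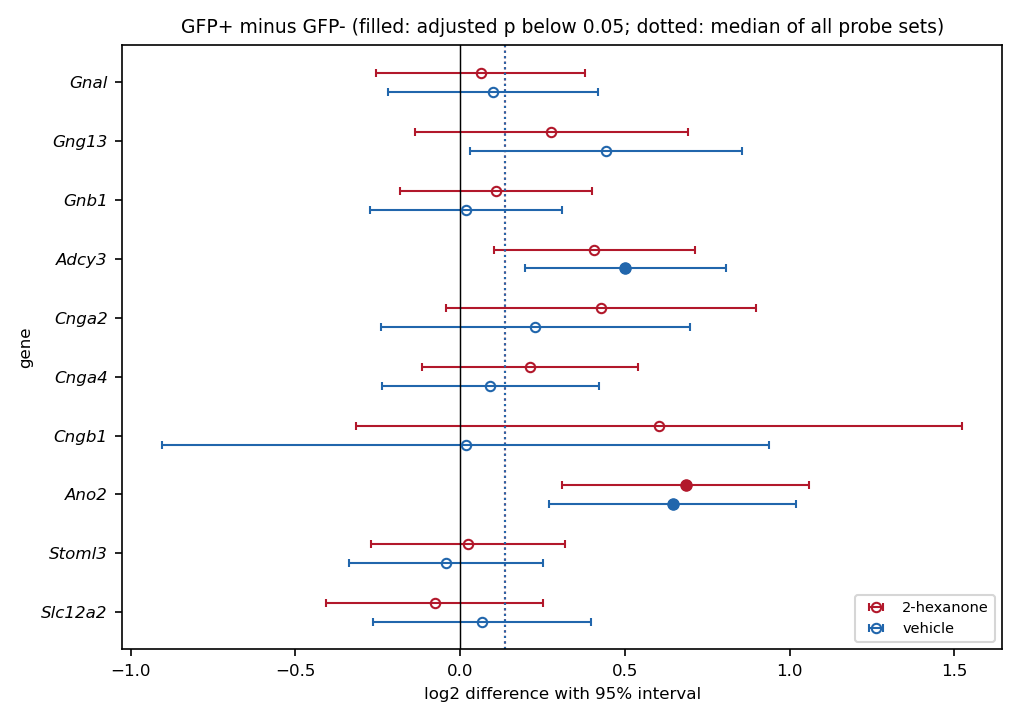
GFP+ minus GFP- log2 difference (horizontal axis) with 95% interval for the 10 cascade genes after 2-hexanone (red) and vehicle (blue). Filled points passed the test, and dotted lines mark the median of all probe sets. Ano2 passed under both treatments at 0.68 and 0.64 and Adcy3 after vehicle at 0.50, while most other intervals span 0.

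The 3 subunits of the cyclic nucleotide-gated channel did not pass. Cnga2, the principal subunit, stood at 17.27, 16.85, 16.50 and 16.98 in GFP+ cells after 2-hexanone, against 16.98, 16.30, 16.32 and 16.28 in GFP- cells. After vehicle it stood at 17.18, 16.91, 16.41 and 16.63 in GFP+ cells, against 16.88, 16.47, 16.53 and 16.33 in GFP- cells. Pool 1 was the highest in every group, and the fractions overlapped under both treatments although 7 of 8 pools had GFP+ above GFP-. The difference was 0.43 ± 0.22 SE after 2-hexanone (-0.04 to 0.90, adjusted p = 0.24), 0.23 ± 0.22 SE after vehicle (-0.24 to 0.70, 0.553) and 0.33 ± 0.16 SE averaged (-0.0045 to 0.66, 0.138). Cnga4, a modulatory subunit, averaged 17.12 ± 0.13 in GFP+ and 16.91 ± 0.19 in GFP- cells after 2-hexanone, and 17.06 ± 0.06 and 16.97 ± 0.17 after vehicle. GFP+ was above GFP- in 7 of 8 pools, and the averaged difference was 0.15 (-0.08 to 0.38). Cngb1, the other modulatory subunit, read 4.42 to 6.49 on the 16 arrays, under the floor on each, so no difference could be measured for it.

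Stoml3 and Slc12a2 showed the smallest averaged differences of the 10. Stoml3 stood at 19.80, 19.80, 19.73 and 19.80 in GFP+ cells after 2-hexanone, against 19.80, 19.77, 19.67 and 19.78 in GFP- cells. After vehicle it stood at 19.81, 19.80, 19.51 and 19.70 in GFP+ cells, against 19.80, 19.78, 19.78 and 19.63 in GFP- cells. Each of these numbers is the highest value of its array, so they trace the top of the scale, and the averaged difference of -0.01 (-0.22 to 0.20) carries no more than that. Slc12a2 lay well under the top, at 15.87 to 16.14 in GFP+ and 15.88 to 16.20 in GFP- cells after 2-hexanone and 15.87 to 16.12 and 15.77 to 16.22 after vehicle, ranges that overlapped almost wholly. GFP+ exceeded GFP- in 3 of 8 pools, 0 of 4 after 2-hexanone and 3 of 4 after vehicle. The averaged Slc12a2 difference was -0.01 with an interval from -0.24 to 0.23, so a rise as large as that of Ano2 lay outside the interval.

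Scaling shifted every sort difference. With each array centred on its median, the median difference of all probe sets moved to 0.49 after 2-hexanone, 0.50 after vehicle and 0.51 averaged, and 8, 8 and 9 of the 10 genes passed. Relative to the median of all probe sets, Ano2 was higher by 0.55 after 2-hexanone and 0.51 after vehicle, and Adcy3 by 0.27 and 0.36, as deposited. Centring moves every probe set of an array alike, so it leaves these relative values as they were by construction and does not test them. With quantile normalization they were 0.52 and 0.49 for Ano2 and 0.23 and 0.37 for Adcy3. Averaged, the signs of Stoml3 and Slc12a2 turned with centring, so a direction for either is not given here.

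The second question was whether pulses of 2-hexanone changed the cascade's transcripts. None of the 10 genes passed the test in either fraction. In GFP+ cells 0 of 10 genes passed, where 2 of 22206 probe sets did (0.00901%), and in GFP- cells 0 of 10 passed, where 0 probe sets did (0%, with 547 at an unadjusted p under 0.05). For the change of the sort difference with treatment the counts were 0 of 10 genes and 2 probe sets (0.00901%). At an unadjusted p under 0.05 the count of cascade genes was 0 of 10 in all 3 contrasts. Over all 22206 probe sets it was 869 in GFP+ cells, 547 in GFP- cells and 650 for the change, so 0 of 10 lies near these shares. The treatments' arrays overlapped for all 10 genes in both fractions, where 2.01% of all probe sets in GFP+ and 1.77% in GFP- cells did not overlap. For the 9 genes above the floor, 2-hexanone minus vehicle differences ran from -0.20 (Gng13) to 0.12 (Cnga2) in GFP+ cells, with intervals that stayed within -0.62 to 0.58. In GFP- cells they ran from -0.08 to 0.11 (Slc12a2), with intervals within -0.55 to 0.44. The change of the sort difference lay between -0.17 (Gng13) and 0.20 (Cnga2), with intervals from -0.75 to 0.86. For the called genes the 2-hexanone minus vehicle intervals were -0.42 to 0.33 for Ano2 and -0.38 to 0.23 for Adcy3 in GFP+ cells. With 4 pools per treatment, changes inside these intervals remain possible, and equal levels were not shown. The bounds are not a limit of detection.

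**Figure D4:**
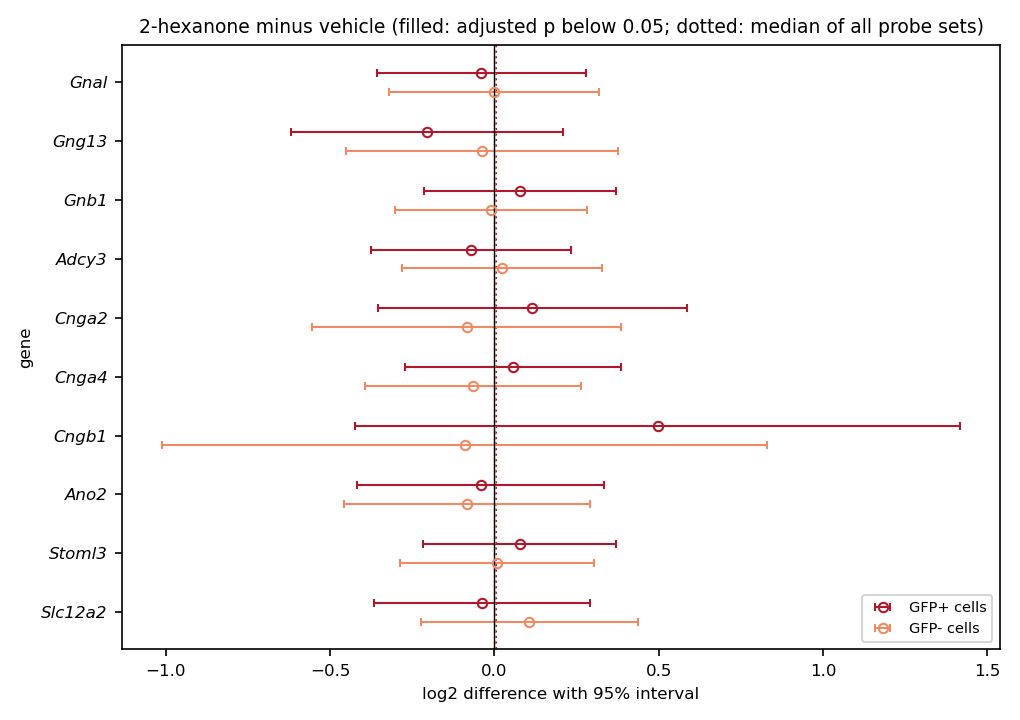
2-hexanone minus vehicle log2 difference (horizontal axis) with 95% interval for the 10 cascade genes in GFP+ cells (dark red) and GFP- cells (orange). Dotted lines mark the median of all probe sets, and filled points would have passed the test. None of the points is filled, and every interval spans 0.

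By group mean, Ano2 stood at 17.70 after 2-hexanone and 17.74 after vehicle in GFP+ cells, and at 17.02 after 2-hexanone and 17.10 after vehicle in GFP- cells. Adcy3 stood at 17.96 and 18.03 in GFP+ cells, and at 17.55 and 17.53 in GFP- cells, after 2-hexanone and vehicle. For both genes the 2 treatments of a fraction were neighbours in the order of levels and differed by less than their SD, and the step beyond the SD lay between the fractions.

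The named genes whose mean-centred profile over 16 arrays lay nearest to a member were found among 7494 genes above the floor on all arrays, by the root mean square difference in log2 units. Nearest to Gnal were Stom (0.07), Omp (0.08) and Gnb1 (0.09), against a median of 0.30 over all genes compared. Nearest to Adcy3 were Ndufc2 (0.09), Iws1 (0.12) and Bicdl1 (0.12), against 0.33. Nearest to Cnga2 were Adipor1 (0.10), Prkx (0.11) and Zbtb7b (0.12), against 0.37, and nearest to Ano2 were Retreg1 (0.12), Ckb (0.12) and Acad11 (0.13), against 0.39. Probe sets with little spread lie near each other by this measure, which bears on the neighbours of Gnal near the top of the scale.

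Regulators and partners of the cascade moved in both directions between fractions. Of 28 listed genes 24 had a probe set. After 2-hexanone 5 were higher and 4 lower in GFP+ cells, where 5.29% and 9.56% of all probe sets were. After vehicle 5 were higher and 4 lower, where 5.83% and 9.86% of all probe sets were. The median difference was 0.18 and 0.34, against 0.14 and 0.14 over all probe sets. Of those higher, Kcnmb3, a potassium channel subunit, stood at 14.01 to 14.99 in GFP+ and 12.33 to 13.09 in GFP- cells after 2-hexanone, and at 14.03 to 15.08 and 12.18 to 13.33 after vehicle. It differed by 1.82 ± 0.29 SE (adjusted p = 0.000159) and 1.71 ± 0.29 SE (0.000314), the largest rise on the list. The exchanger Slc8a1, which carries calcium out of cells, stood at 10.94 to 12.18 in GFP+ and 9.79 to 10.49 in GFP- cells after 2-hexanone, and differed by 1.48 ± 0.33 SE (adjusted p = 0.00339) there and by 1.46 ± 0.33 SE (0.00388) after vehicle. Pde1c, the calcium- and calmodulin-stimulated phosphodiesterase of the cilia, stood at 15.71 to 16.12 in GFP+ cells after 2-hexanone, against 14.56 to 15.05 in GFP- cells, and differed by 1.10 ± 0.18 SE (adjusted p = 0.0002) there and by 0.94 ± 0.18 SE (0.000945) after vehicle. All 3 genes were measured above the floor on every array, with no overlap between the fractions. Chosen after their values were seen, the phosphodiesterase Pde4a (0.82 and 0.68) and the exchanger Slc24a4 (0.64 and 0.53) were the others that rose.

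On the lower side, Rgs2, a regulator of G protein signalling, was not above background on any GFP+ array and was at least 7.36-fold lower after 2-hexanone (adjusted p = 2.06e-08) and at least 7.53-fold lower after vehicle (2.34e-08). Pde2a, a phosphodiesterase of the cyclic GMP neurons of the nose, was above background on 1 of 4 GFP+ arrays under each treatment, and was 6.49-fold lower after 2-hexanone and 9.30-fold lower after vehicle with the other arrays raised to their floor (adjusted p of the test on the values as deposited, 2.82e-07 and 4.93e-08). Ano6, chosen after its values were seen, fell by 0.94 after 2-hexanone and fell by 0.73 after vehicle, while its relative Ano2 was higher. The kinase Grk3 passed as lower but lay under the floor in all groups. Among genes that did not pass, the calcium pump Atp2b1 differed by 0.58 and 0.64, Ric8b, an exchange factor for Golf, by 0.40 after 2-hexanone, the receptor chaperone Rtp2 by 0.49 after 2-hexanone and Reep1 by 0.49 after vehicle. For 2-hexanone in GFP+ cells, in GFP- cells and for the change of the sort difference 0 of 24 passed. At an unadjusted p under 0.05 there were 0, 0 and 1, where 869, 547 and 650 of all 22206 probe sets were.

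Paralogs of the cascade genes that passed were mostly lower in GFP+ cells, and many were not above background. Of 62 listed genes 60 had a probe set, and 35 lay at or under the floor on all 16 arrays. After 2-hexanone 1 was higher and 12 lower in GFP+ cells, where 5.29% and 9.56% of all probe sets were. After vehicle 3 were higher and 11 lower, where 5.83% and 9.86% of all probe sets were. The median difference was 0.03 after 2-hexanone and 0.09 after vehicle. Some of these calls lay under the floor in both fractions and are given no fold. After 2-hexanone these were Gna14, the single paralog called higher, and Gna15, Gnat3 and Adcy7, called lower. After vehicle they were Slc12a3, called higher, and Gnat3, called lower. The other 2 paralogs called higher after vehicle were measured above the floor on all vehicle arrays of both fractions. Adcy7 was also called lower after vehicle, above the floor on 0 of 4 GFP+ and 1 of 4 GFP- arrays. These genes are named after their values were seen. Gnai2, an inhibitory G protein alpha subunit, was at least 56.5-fold lower after 2-hexanone (adjusted p = 9.07e-11). After vehicle it was 58.9-fold lower (2.1e-10), with 2 of 4 GFP+ arrays above the floor and the others raised to it. Gnas, the alpha subunit that most other cells use to stimulate cyclases, was at least 9.82-fold lower after 2-hexanone (adjusted p = 6.3e-08) and 11.6-fold lower after vehicle (2e-08), where 1 of 4 GFP+ arrays measured it. The gamma subunit Gng8 of immature neurons was at least 5.39-fold and 7.19-fold lower, Gng2 at least 3.17-fold and 4.25-fold lower and Gng12 at least 1.35-fold and 1.93-fold lower, after 2-hexanone and vehicle (the highest of the 6 adjusted p was 0.00158). The beta subunit Gnb5 did not pass after 2-hexanone (0.50, adjusted p = 0.0969), and Ano10 did not pass after vehicle (-0.58, adjusted p = 0.0678). For the same 3 contrasts with 2-hexanone 0 of 60 paralogs passed. At an unadjusted p under 0.05 there were 4, 1 and 1, where 869, 547 and 650 of all 22206 probe sets were.

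**Figure D5:**
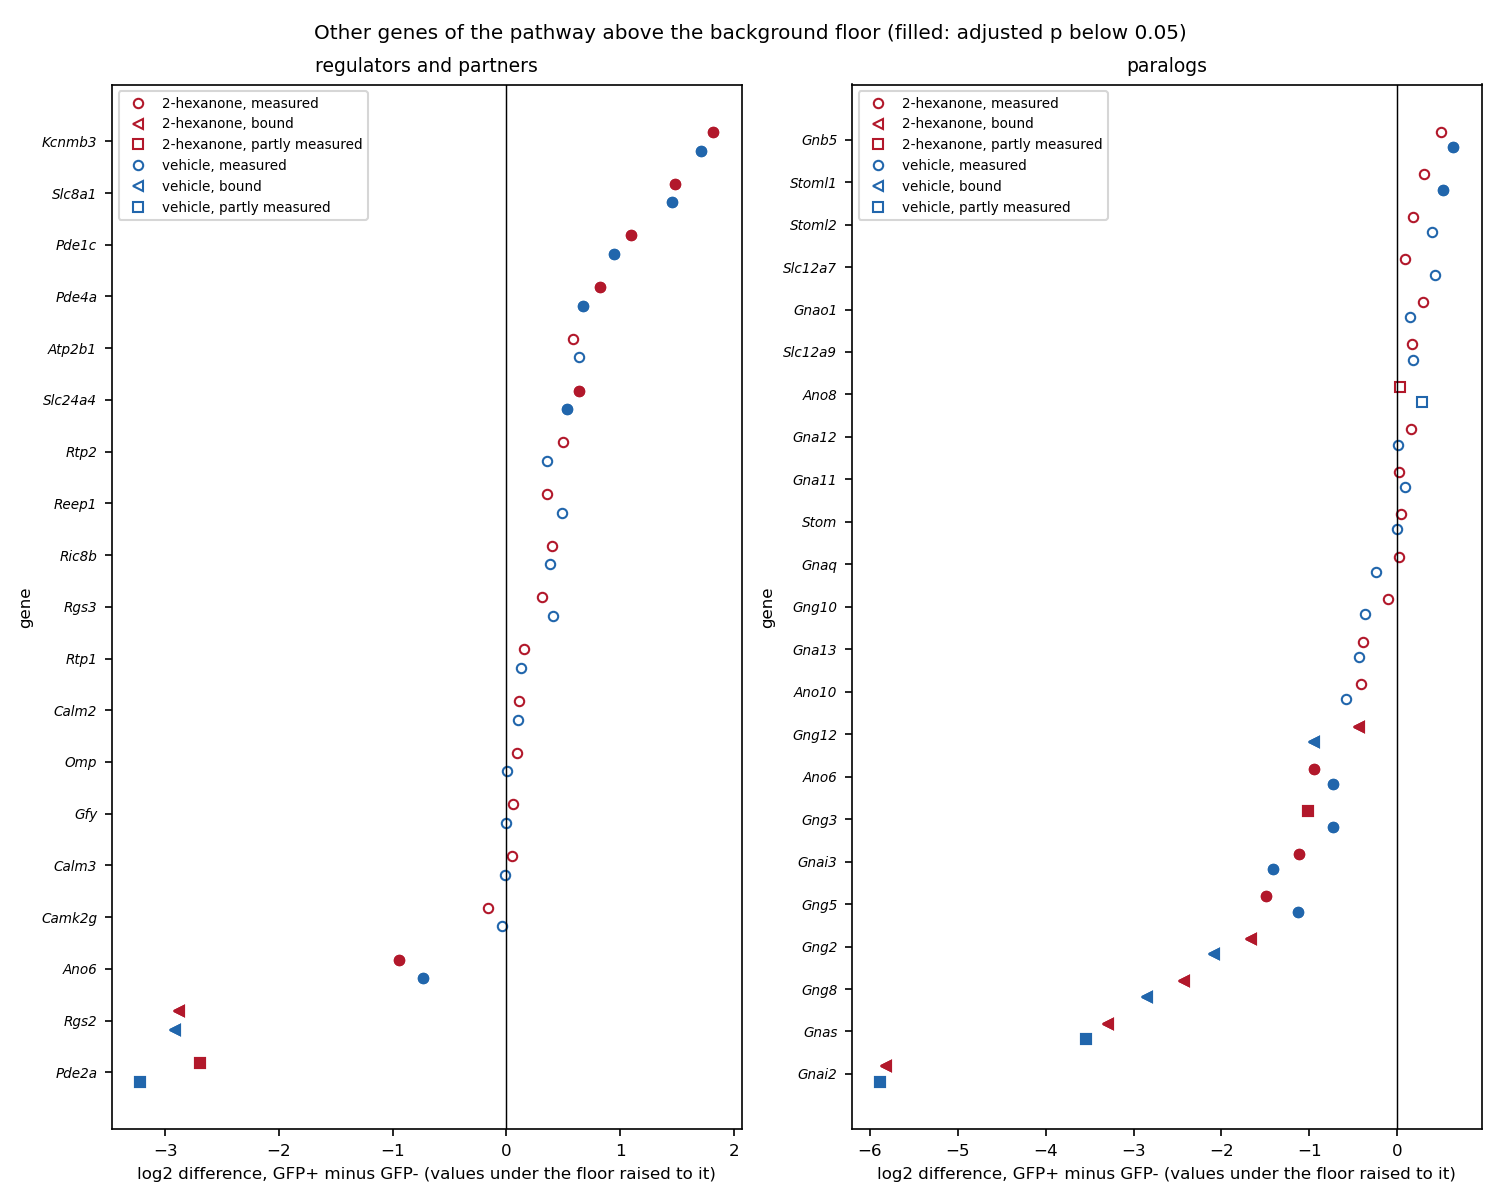
GFP+ minus GFP- log2 difference (horizontal axis) of 19 regulators and partners and 23 paralogs that lay above the floor, after 2-hexanone (red) and vehicle (blue). Circles were measured in both fractions, triangles are bounds because no GFP+ array was above its floor, squares had only some arrays above it, and filled symbols passed the test. Kcnmb3, Slc8a1 and Pde1c lie highest on the left, and Gnai2 lies lowest on the right.

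Markers of several other cell types moved with the sort. The counts below stand beside 5.29% of all probe sets called higher and 9.56% lower in GFP+ cells after 2-hexanone. After vehicle these shares were 5.83% and 9.86%. Of 14 immune markers 14 were lower in GFP+ cells under both treatments. The log2 of their summed signal was 8.98 to 9.50 in GFP+ and 18.83 to 19.16 in GFP- cells after 2-hexanone, and 8.60 to 9.99 and 17.45 to 19.78 after vehicle. Of these, 11 lay under the floor on all GFP+ arrays after 2-hexanone and 12 after vehicle, Ptprc, Csf1r and Spi1 among them. Of 8 microvillous cell markers 8 were lower, with summed signals of 10.49 to 10.86 in GFP+ and 13.64 to 15.04 in GFP- cells after 2-hexanone and 10.56 to 10.90 and 13.80 to 14.65 after vehicle. Trpm5 and Pou2f3 lay under the floor on all GFP+ arrays. Sustentacular markers were lower in 5 of 10 under each treatment, with sums of 13.46 to 14.50 in GFP+ and 15.31 to 15.75 in GFP- cells after 2-hexanone and 12.00 to 13.86 and 14.42 to 15.75 after vehicle. Basal and progenitor markers were lower in 5 of 8, and all 8 lay under the floor in GFP+ cells, with sums of 7.16 to 7.77 in GFP+ and 11.18 to 12.44 in GFP- cells after 2-hexanone and 7.33 to 7.57 and 10.91 to 13.45 after vehicle. Erythroid markers were lower in 2 of 2, Bowman gland and respiratory in 2 of 9 and non-canonical sensory neuron markers in 2 of 6 under each treatment. Endothelial and stromal markers gave 1 higher and 2 lower of 7 after 2-hexanone and 0 and 2 after vehicle, and ensheathing glia 1 higher of 5 and 0 of 5. Many markers of these lists lay at or under the floor on all 16 arrays. They were 6 of 9 gland and respiratory, 4 of 6 non-canonical, 5 of 7 endothelial and stromal and 4 of 5 glia markers. Among the other lists, 4 of 8 basal and progenitor, 2 of 10 sustentacular and 1 of 8 microvillous markers lay there too. The counts of lower markers above thus include genes not above the floor in either fraction. Il25 among the microvillous markers and, after 2-hexanone, C1qa and C1qb among the immune markers were such genes. Immature neuron markers were lower in 5 of 12 after 2-hexanone and 6 of 12 after vehicle. Their sums, which the brightest genes dominate, overlapped under both treatments, at 17.25 to 17.91 in GFP+ and 17.05 to 17.77 in GFP- cells after 2-hexanone. The mean log2 of the same 12 markers did not overlap, at 10.7 to 11.4 in GFP+ and 12.1 to 12.5 in GFP- cells after 2-hexanone. After vehicle that mean was 10.7 to 11.3 and 12.1 to 12.6.

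Mature neuron markers were higher in 1 of 7 after 2-hexanone and 2 of 7 after vehicle, with summed signals of 20.73 to 20.87 in GFP+ and 20.61 to 20.76 in GFP- cells after 2-hexanone and 20.59 to 20.87 and 20.56 to 20.80 after vehicle. Those sums overlapped under both treatments, and the brightest genes dominate them. By mean log2 of all 7 markers the fractions stayed apart. After 2-hexanone the highest GFP- array read 16.08 and the lowest GFP+ array 16.39, and after vehicle 16.30 and 16.37. Differences were positive for 7 of 7 markers after 2-hexanone (median 0.31) and 6 of 7 after vehicle (median 0.29). The medians of the 10 cascade genes were 0.24 and 0.10. Gng8 is on the immature list, Pde2a on the non-canonical list, and Kcnmb3, Rtp1, Rtp2, Gfy and Omp on the mature list as well as on those above. The part of cell make-up in the differences of Ano2, Adcy3 and the paralogs was not tested.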

How the data were processed

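RNA of sorted GFP+ and GFP- cells from 8 pools of 3 mice was measured on 16 Clariom S mouse arrays. Per the submitters' processing notes, the authors used Affymetrix Expression Console; the deposited table holds a log2 signal for each probe set. Version, summarisation method and annotation build: not given in the sources used here. Of 28846 rows, 6640 controls were removed, which left 22206 for testing. The platform's annotation named 19572 of them with 1 symbol, 0 with several and 2634 not at all; the Entrez identifiers matched assembly GRCm38.p6. No 2 arrays were identical (Pearson r up to 0.992).

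Sample titles gave the group and replicate number of each array. Linear models were fitted with limma 3.58.1 in R 4.3.3 (lmFit, then eBayes) as 4 group means over 16 arrays without covariates, giving 12 residual degrees of freedom. The eBayes step drew each probe set's variance toward 1 value common to all signal levels. The median within-group SD was 0.39 for probe sets with means under 6 and 0.09 at 19 or more. Intervals of the brightest genes are therefore wider than their own spread alone would give. Benjamini-Hochberg adjustment ran over all 22206 probe sets, with calls at an adjusted p below 0.05 and intervals of 95%. A fold is a bound ("at least") where the dimmer group was under the floor throughout; it is then taken against the higher of floor and value on each array. Code was tested on simulated data. Plots used Python 3.11.15 and matplotlib 3.10.9.

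By the labels, the paired GFP+ and GFP- arrays come from the same mice. Their deviations from group means correlated at 0.425, 0.0749, 0.161 and 0.109 in 2-hexanone pools 1 to 4 and at 0.352, 0.0136, 0.0516 and 0.0837 in vehicle pools 1 to 4 (consensus 0.171), and fits with the pool as a block are given where they changed a call. Other alternatives were arrays centred on medians, quantile normalization, the lowest 20% of probe sets left out, only the arrays compared, a trended robust prior, array weights, replicate number as a block, each pool left out and, added after seeing the data, both pools numbered 1 left out.

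All members were named. Of the regulator and paralog lists the rule took, per sort contrast, up to 6 members of largest difference that passed and 3 that did not, of which the text names a part; for 4 members it took the 3 genes of nearest profile. The members, lists and markers were chosen with earlier results of these data known.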

Additional observations from a re-analysis of the deposited data

Results flagged for a closer look

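In 40 groups of 4 arrays (10 genes in 4 groups), 7 held an array whose gap to its nearest neighbour, as a share of the group's range, exceeded Dixon's 95% critical value. Chance flags about 1 in 20 groups. Of these 7 arrays, 3 belonged to pools numbered 1. In GFP- cells after 2-hexanone, Cnga2 stood at 16.98 in pool 1, against 16.28 to 16.32 in the other pools (ratio 0.939). In GFP- cells after vehicle, Cnga4 stood at 17.23 in pool 1, against 16.88 to 16.89 (0.953), and Ano2 at 17.44 in pool 1, against 16.97 to 17.01 (0.915). Adcy3 stood at 17.75 in pool 2 of GFP- cells after 2-hexanone, against 17.45 to 17.50 (0.832), which brings that array nearest to the GFP+ arrays. The other 3 lay at the top of the scale, each low. Gnal stood at 18.95 in pool 4 of GFP- cells after vehicle, against 19.08 to 19.10 (0.923). Stoml3 stood at 19.73 in pool 3 of GFP+ cells after 2-hexanone, against 19.80 in the other pools (0.982), and at 19.63 in pool 4 of GFP- cells after vehicle, against 19.78 to 19.80 (0.858).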

How the results depend on the processing

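Of 1040 alternative values of the 60 member differences, 999 stayed on the same side of the threshold, 10 lost the call, 29 gained it (18 of them with centred arrays) and 2 passed with the sign changed. Of the 999, 943 kept their sign and 56 did not (3 of these were exactly 0), and none of the 56 was called in either setting. They were 43 odor contrasts or changes of the sort difference and 13 GFP+ minus GFP- differences of Gnal, Gnb1, Cngb1, Stoml3 or Slc12a2. With centred arrays they included Slc12a2 after 2-hexanone (0.27, as deposited -0.08) and Stoml3 after vehicle (0.32, as deposited -0.04). Both that passed with the sign changed were averaged GFP+ minus GFP- differences with arrays centred on their medians, Stoml3 at 0.35 (adjusted p = 0.00609) and Slc12a2 at 0.35 (0.0101). Centring also moved the cascade genes called to 8 after 2-hexanone, 8 after vehicle and 9 averaged (1, 2 and 2 as deposited), and all probe sets called to 10258, 10736 and 16577 (3299, 3484 and 5853); its construction adds the fractions' difference in array medians to every probe set. After 2-hexanone, 2 cascade genes were called with the pool as a random block, with the lowest 20% of probe sets left out and with a trended robust prior, and 0 to 1 with 1 pool left out. After vehicle, 0 were called with only the arrays compared, 0 to 2 with 1 pool left out, and 1 without both pools numbered 1. For the members, all 510 alternative values of the odor contrasts and of the change of the sort difference missed the threshold (lowest adjusted p = 0.913).

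Replicate numbers are shared across treatments without a stated link, and same-numbered arrays correlated at 0.419, 0.0996, 0.214 and 0.0492 in GFP+ and at 0.354, 0.0841, 0.031 and 0.214 in GFP- cells for numbers 1 to 4. With the replicate number as a block, 4 cascade genes were called in the averaged contrast, Cnga2 (adjusted p = 0.0351) and Gng13 (0.0382) joining Ano2 and Adcy3. That block also gave 5 probe sets of all for 2-hexanone in GFP+ cells and 1 in GFP- cells. Over all probe sets, 2-hexanone in GFP+ cells gave 1 with only the arrays compared (2 as reported). In GFP- cells it gave 1 with quantile normalization, a trended robust prior or array weights (0 otherwise). The change of the sort difference gave 0 with the pool as a fixed block, 0 to 1 with 1 pool left out and 0 without both pools numbered 1 (2 otherwise). Paralogs called after vehicle were 14, but 8 with only the arrays compared and 8 to 14 with 1 pool left out. Closeness to the top of the scale and the floor under Cngb1 limit what these arrays can show. Saturation was not tested.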
